A study of Rattus norvegicus with 47 samples.

Results

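A small set of genes in rat blood had lower mRNA at 1 h post MCA occlusion than before it, and then higher mRNA at 3 h or 6 h. Occlusion of the middle cerebral artery (MCA) with a thread is a model of ischemic stroke. The set was found by a rule on the authors' mean log2 signal, in which a change is the mean at a time point minus the mean at 0 h. A probe set with a gene symbol was kept if its change was at or below -0.2 at 1 h, at or above 0.4 at 3 h or 6 h, and above -0.25 at 24 h. The rule kept 61 probe sets, or 59 gene symbol entries, of the 21406 probe sets with a symbol and of 27596 in all. Since the rule used the changes at 1, 3, 6 and 24 h, these are given below as a description with no test. The change at 2 h was not used by the rule and was tested, although it is measured against the same 0 h arrays.

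Blood was taken from 8 male spontaneously hypertensive (SHR) rats, 16 weeks of age, and hybridized to Affymetrix whole-transcript rat gene arrays. There were 8 arrays at each of 0, 1, 2, 3 and 24 h and 7 arrays at 6 h. All rats had isoflurane anesthesia and surgery after the 0 h sample, and the thread was withdrawn between the 1 h and 2 h samples. No sham-operated group was part of these samples, so occlusion, anesthesia, surgery and time cannot be told apart. The 24 h blood was drawn from the heart after an anesthetic overdose and all earlier blood from a tail vein, so the 24 h time and the site of sampling cannot be told apart. RNA came from the pellet of all blood cells, in which fewer cells of a type and less RNA per cell cannot be told apart. Values below are the authors' means ± deposited SD on the log2 scale, since the columns of single arrays name neither the animal nor the time.

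As background, a pellet of blood cells holds neutrophils, monocytes, lymphocytes, platelets and red cells, and the mix of circulating leukocytes can shift within hours of stress or injury. Monocytes and neutrophils respond to lipid mediators through G protein-coupled receptors, which act through phospholipases that cut membrane lipids into second messengers. Several genes of the set belong to this machinery, and others encode metabolic enzymes, regulators of mRNA, and proteins that fold, traffic or shed other proteins. For the text the 61 probe sets were sorted by textbook role after their values had been seen.

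The limits of the rule were met together by few probe sets. The change at 1 h met its limit in 3919 probe sets with a symbol, 18.3% of them, and the later rise met its limit in 1444, or 6.75%. Both were met by 70 probe sets (0.327%), of which 61 also met the 24 h limit. In the plot of the 1 h change against the later change most probe sets lay along a diagonal, and the 61 lay in the corner away from it.

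**Figure D1:**
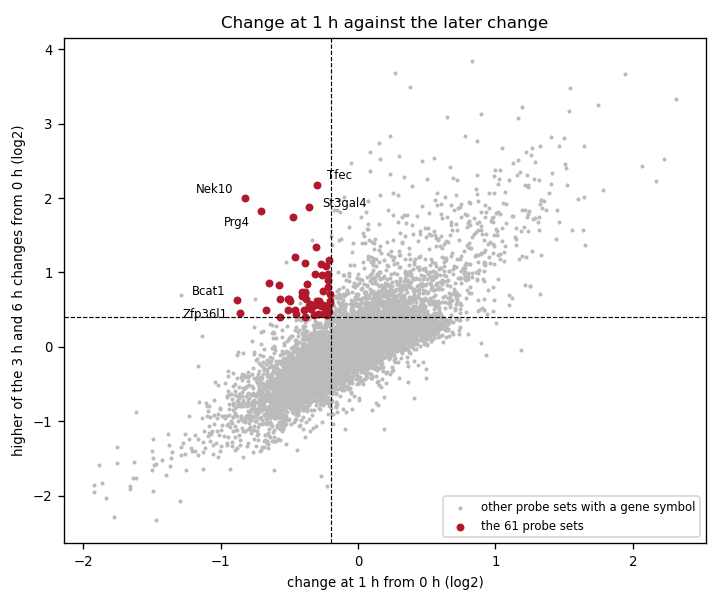
Change from 0 h at 1 h (x axis, log2) against the higher of the 3 h and 6 h changes (y axis, log2) for 21406 probe sets with a gene symbol. Dashed lines mark the limits of -0.2 and 0.4, and the 61 probe sets in red fill the upper left corner, with Tfec, Nek10, St3gal4 and Prg4 highest.

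Across the 61 probe sets the median changes were -0.34, -0.06, 0.34, 0.58 and -0.03 at 1, 2, 3, 6 and 24 h. The medians of all probe sets with a symbol lay between 0.04 and 0.07 at these times. The 1 h mean was the lowest of the 6 time points in 55 probe sets, the 2 h mean in 5 and the 3 h mean in 1. The 6 h mean was the highest in 46 probe sets, the 3 h mean in 13 and the 24 h mean in 2. In 41 of the 61 the mean rose at every step from 1 h to 2, 3 and 6 h. By 24 h the mean was below that at 6 h in 59, and it lay within 0.2 of the 0 h mean in 50. The rule favours both counts, since it asks for a rise at 3 h or 6 h and for a 24 h change above -0.25. The 24 h changes of all probe sets with a symbol also lay near 0, with lower and upper quartiles of -0.11 and 0.14. Neither count is therefore a result about the set. The rebound, here the higher of the 3 h and 6 h means minus the 1 h mean, had a median of 1.02 on the log2 scale and ranged from 0.65 to 2.82.

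**Figure D2:**
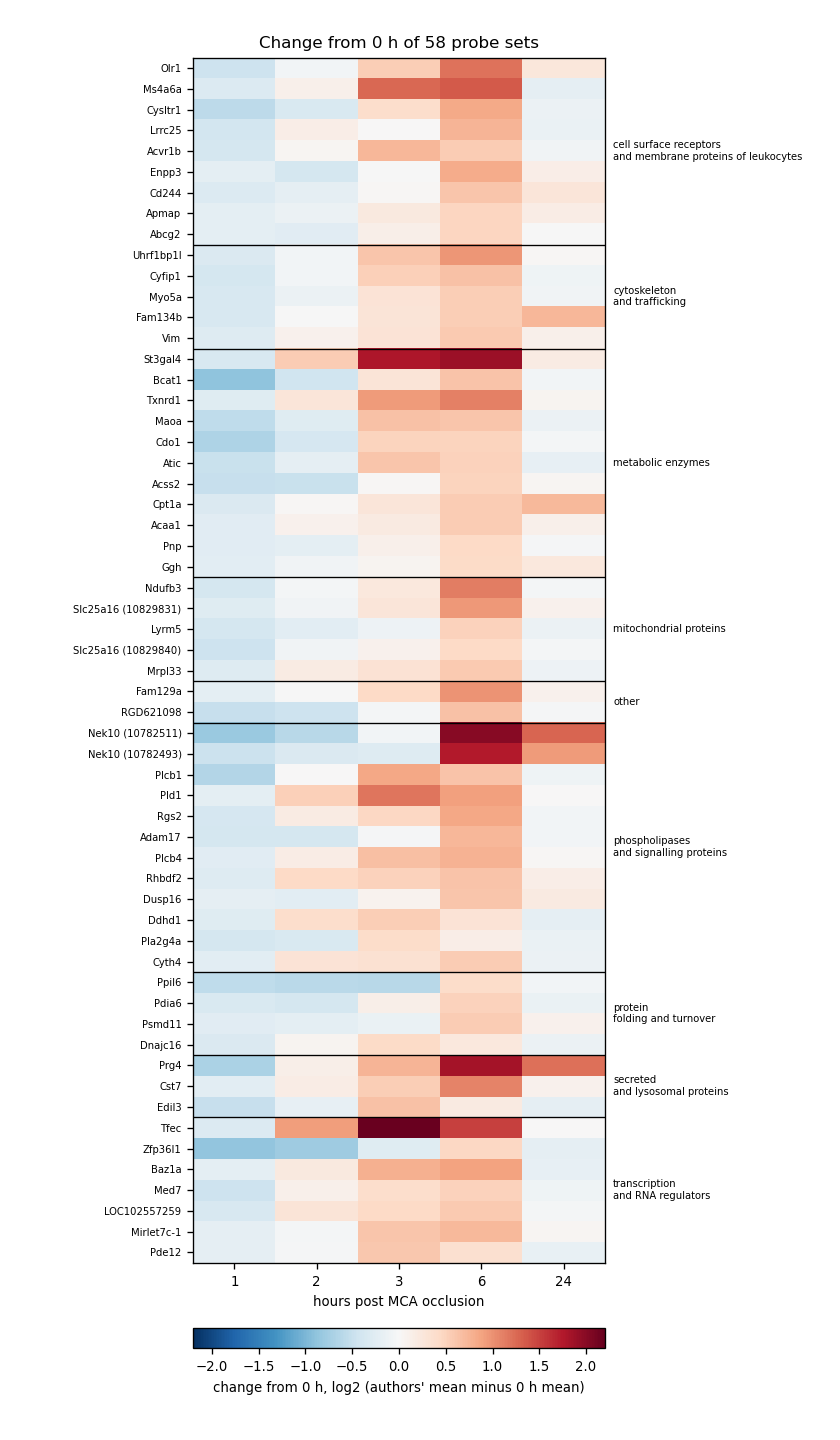
Change from 0 h (colour, log2) of 58 of the 61 probe sets (rows, grouped by role) at 1, 2, 3, 6 and 24 hours post MCA occlusion (columns, not spaced to scale). The 1 h column is blue throughout by the rule, the strongest colours are at 3 h and 6 h, and at 24 h only Nek10, Prg4, Cpt1a and Fam134b stand clearly above 0.

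The changes were set beside the spread between arrays as a description, since the rule fixes their least size. The fall exceeded the higher of the 0 h and 1 h SDs in 45 of the 61 probe sets. The rebound, which the rule's limits keep large, exceeded the highest SD of any time point in 60, and 3 times that SD in 38. The deposited SDs themselves were not used by the rule. Their median over the 61 was 0.21, 0.20, 0.19, 0.24, 0.23 and 0.24 at 0, 1, 2, 3, 6 and 24 h, and over all probe sets with a symbol it was 0.14, 0.14, 0.13, 0.16, 0.15 and 0.15. The one probe set whose rebound did not exceed its SD was that of Fam134b, a receptor that marks endoplasmic reticulum for autophagy. Its SDs ran from 0.54 to 1.15 and were the highest of all probe sets with a symbol at 2, 3 and 6 h. It spans 40 bases, and the other probe sets of this gene did not share its profile, with changes of 0.24 and -0.03 at 6 h.

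At 2 h the set had no common direction. With limma's moderated test and Benjamini-Hochberg adjustment over all 27596 probe sets, 9 of the 61 were higher at 2 h (14.8%), 12 were lower (19.7%) and 40 did not pass 0.05. Over all probe sets 21.7% were called higher and 18.6% were called lower, so neither share of the set lay far from the background and neither is a result about the set. The single calls are given below with the genes.

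**Figure D3:**
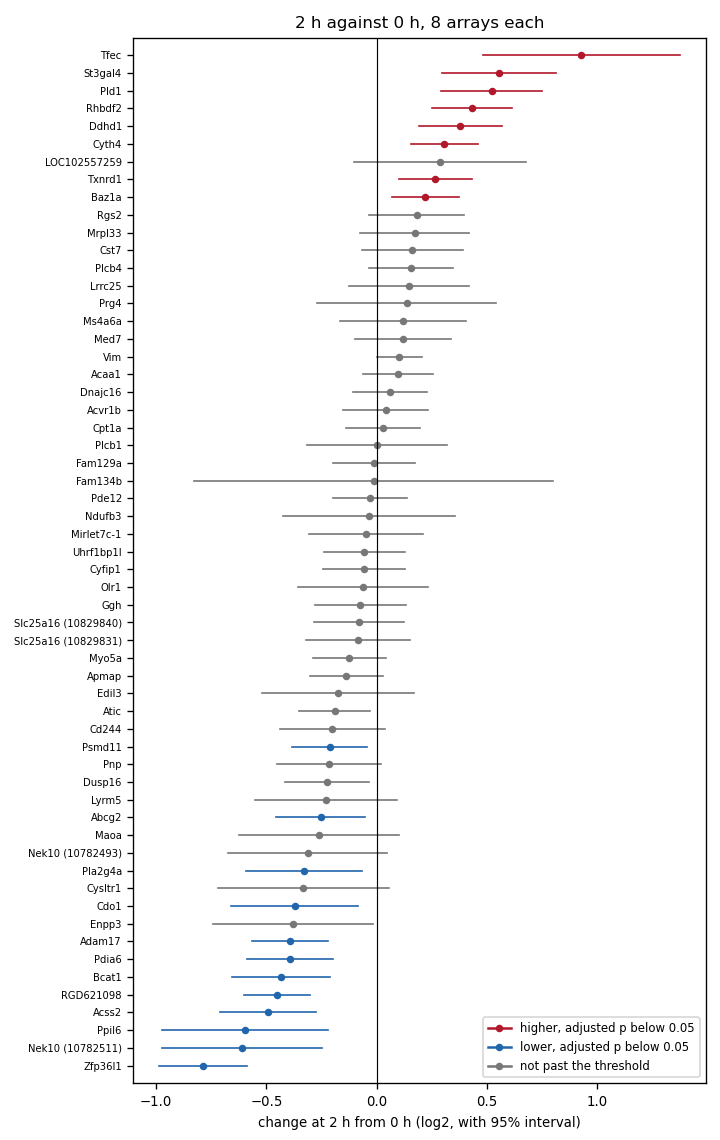
Change at 2 h from 0 h (x axis, log2) for 58 of the 61 probe sets (rows), with its 95% interval from the moderated test and 8 arrays at each time. Red marks 8 called higher, from Baz1a to Tfec, blue the 12 called lower, from Psmd11 to Zfp36l1, and grey 38 that did not pass an adjusted p of 0.05.

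Nek10, a kinase of the NIMA family, had the largest rebound of the set. Its probe set 10782511 measured 7.58 ± 0.27, 6.76 ± 0.34, 6.98 ± 0.11, 7.53 ± 0.29, 9.58 ± 0.19 and 8.87 ± 0.73 at 0, 1, 2, 3, 6 and 24 h. The signal was thus below 0 h for 2 h, back at its level at 3 h and 3.99 times it at 6 h. At 2 h it was lower, with a change of -0.61 (SE 0.18, limma adjusted p = 0.00561). A second probe set, 10782493, also met the rule, with changes of -0.47, -0.31, -0.28, 1.75 and 0.93 at 1, 2, 3, 6 and 24 h, and its 2 h change did not pass (adjusted p = 0.159). The third, 10782509, lies between them on chromosome 15 of the rn5 build and fell by 0.17 at 1 h, short of the limit, but was higher by 1.84 at 6 h and 1.14 at 24 h. All 3 probe sets therefore had their highest mean at 6 h, and in both that met the rule the SD was highest at 24 h.

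Prg4 (chromosome 13, 72637699 to 72653305 on rn5, minus strand), which encodes the lubricating glycoprotein lubricin, had the second largest rebound of a gene. It measured 9.09 ± 0.29, 8.39 ± 0.44, 9.23 ± 0.28, 9.84 ± 0.33, 10.92 ± 0.33 and 10.31 ± 0.71 at 0, 1, 2, 3, 6 and 24 h. Only Nek10 and Prg4 had a change above 0.9 at 24 h among the 61, and for both the spread was widest there. The 2 h value was not separated from 0 h (0.14, SE 0.20, adjusted p = 0.614). Among the other secreted and lysosomal proteins Cst7, the inhibitor of lysosomal cysteine proteases cystatin F, had a 1 h change of -0.23 and a 6 h change of 1.09. Edil3, a secreted integrin ligand, had changes of -0.50, 0.64 and 0.20 at 1, 3 and 6 h. A second probe set of Edil3 had a 1 h change of -0.17 and a 3 h change of 0.42, and so did not meet the rule.

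The largest 3 h rise belonged to Tfec, a basic helix-loop-helix transcription factor of the family of Mitf and Tfeb. Its signals were 8.01 ± 0.34, 7.71 ± 0.42, 8.94 ± 0.57, 10.18 ± 0.55, 9.52 ± 0.47 and 8.01 ± 0.43 at 0, 1, 2, 3, 6 and 24 h. The 3 h signal was 4.51 times that at 0 h, and the 24 h mean was equal to the 0 h mean to 2 decimals. At 2 h Tfec was already higher by 0.93 (SE 0.22, limma adjusted p = 6.81e-04), the largest 2 h change of the set.

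St3gal4, a sialyltransferase that adds sialic acid to galactose on glycoproteins, rose on a similar course but stayed high at 6 h. It measured 8.44 ± 0.17, 8.08 ± 0.28, 8.99 ± 0.23, 10.22 ± 0.26, 10.32 ± 0.31 and 8.62 ± 0.33 at 0, 1, 2, 3, 6 and 24 h. The 3 h and 6 h means differed by less than their SDs, and both lay more than 1.5 above 0 h. The 2 h change was 0.55 (SE 0.13, adjusted p = 4.79e-04). Its rebound was 6.83 times its highest SD, the highest ratio of the 61.

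**Figure D4:**
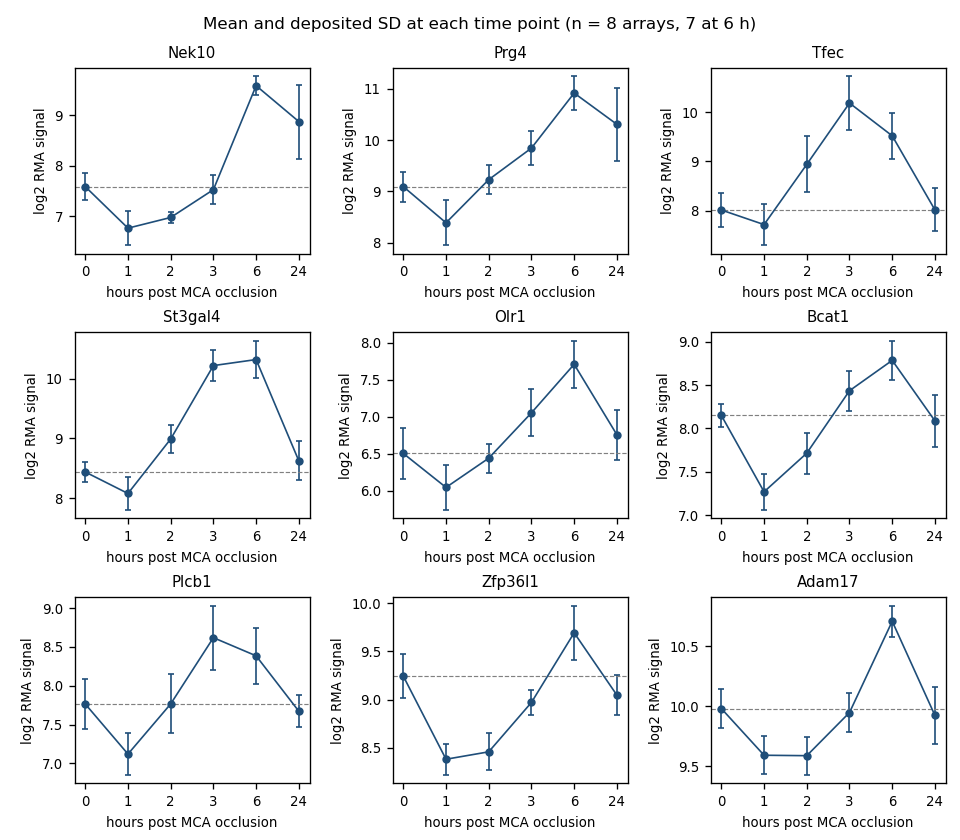
Authors' mean log2 RMA signal (y axis) of 9 genes at 0, 1, 2, 3, 6 and 24 hours post MCA occlusion (x axis, not to scale), with bars of 1 deposited SD and a dashed line at the 0 h mean (n = 8 arrays, 7 at 6 h). Tfec and Plcb1 are highest at 3 h, St3gal4 is level from 3 h to 6 h, and Nek10, Zfp36l1 and Adam17 are above the dashed line at 6 h but not at 3 h.

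Among the transcription and RNA regulators Zfp36l1 stood at the other end from Tfec at 2 h. It encodes an RNA-binding zinc finger protein that promotes decay of mRNAs with AU-rich elements. Its means were 9.24 ± 0.23, 8.38 ± 0.16, 8.46 ± 0.19, 8.97 ± 0.13, 9.69 ± 0.28 and 9.05 ± 0.21 at 0, 1, 2, 3, 6 and 24 h. The signal was still below 0 h at 3 h and passed it only at 6 h. At 2 h it was lower, with a change of -0.79 (SE 0.10, limma adjusted p = 7.65e-09), the largest fall of the set. Baz1a, a chromatin remodelling subunit, was higher at 2 h by 0.22 (adjusted p = 0.0175) and at 6 h by 0.89. Med7, a Mediator subunit, Pde12, a nuclease that removes poly(A) tails, and a probe set shared by the unnamed zinc finger genes LOC102557259 and LOC102556279 did not pass at 2 h and reached 0.50, 0.58 and 0.57 at their highest.

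The set held 1 microRNA gene, Mirlet7c-1, a precursor of let-7c. MicroRNAs pair with target mRNAs mainly through their seed, and let-7 family members are known as regulators of differentiation. The sequence is shown because it is the one regulatory RNA of the set. The mature let-7c-5p is given from RefSeq (GRCr8, chromosome 11, 29688127 to 29688148, plus strand) with its seed, bases 2 to 8, in capitals.
rno-let-7c-5p: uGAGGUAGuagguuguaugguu
Its probe set had a signal of 3.85 ± 0.30, 3.65 ± 0.16, 3.81 ± 0.22, 4.46 ± 0.33, 4.56 ± 0.32 and 3.89 ± 0.25 at 0, 1, 2, 3, 6 and 24 h. The fall at 1 h, of 0.20, was smaller than the SD at 0 h. The signal was low, and with the 25% of probe sets of lowest mean left out the rule found 59 probe sets, without Mirlet7c-1 and Ppil6. The probe set spans 94 bases, the length of the hairpin, and the array does not measure the mature form.

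The phospholipases and signalling proteins were the largest role group by probe sets, with 12, among which Nek10 counts under 2. Their median changes were -0.33, 0.08, 0.43, 0.67 and -0.02 at 1, 2, 3, 6 and 24 h. Phospholipases of types A, C and D were among them. The group was made after the values had been seen, and the other phospholipases of the array were not counted. Its size is therefore no result about phospholipases. Plcb1 and Plcb4, which cut phosphoinositides downstream of G proteins, lie next to each other on chromosome 3 of rn5, 181487 bases apart on the plus strand with no other annotated gene of the array between. Plcb1 measured 7.77 ± 0.32, 7.12 ± 0.27, 7.77 ± 0.38, 8.62 ± 0.41, 8.39 ± 0.36 and 7.67 ± 0.21 at 0, 1, 2, 3, 6 and 24 h. Plcb4 measured 7.54 ± 0.09, 7.29 ± 0.23, 7.70 ± 0.16, 8.20 ± 0.23, 8.30 ± 0.19 and 7.57 ± 0.22. Both were lowest at 1 h and back near 0 h at 24 h, and neither passed at 2 h (adjusted p = 0.997 and 0.184).

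Pld1, which makes phosphatidic acid from phosphatidylcholine, was higher at 2 h by 0.52 (SE 0.11, limma adjusted p = 2.28e-04). It had 7.35 ± 0.20, 7.14 ± 0.21, 8.52 ± 0.32 and 8.24 ± 0.21 at 0, 1, 3 and 6 h. Ddhd1, a phospholipase of the A1 type, also passed as higher at 2 h, by 0.38 (adjusted p = 0.0010), with its highest change of 0.54 at 3 h. Pla2g4a, the cytosolic phospholipase that frees arachidonic acid, went the other way at 2 h, with a change of -0.33 (adjusted p = 0.0406), and lay 0.40 and 0.14 above 0 h at 3 and 6 h. The call of Pla2g4a at 2 h was lost without moderation (adjusted p = 0.0516) and with quantile normalization (adjusted p = 0.198).

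Adam17 and Rhbdf2 act on one pathway. Adam17 is the membrane protease that sheds tumor necrosis factor, and the inactive rhomboid Rhbdf2 carries it to the cell surface. Adam17 measured 9.98 ± 0.16, 9.59 ± 0.16, 9.59 ± 0.16, 9.95 ± 0.16, 10.71 ± 0.13 and 9.92 ± 0.24 at 0, 1, 2, 3, 6 and 24 h. Rhbdf2 measured 7.81 ± 0.19, 7.53 ± 0.12, 8.24 ± 0.12, 8.33 ± 0.17, 8.43 ± 0.27 and 7.96 ± 0.21. The 2 genes were both lower at 1 h but parted at 2 h, when Adam17 was lower, with a change of -0.39 (adjusted p = 1.97e-04) and Rhbdf2 was higher by 0.43 (adjusted p = 1.41e-04). The 95% intervals at 2 h were -0.56 to -0.22 for Adam17 and 0.25 to 0.61 for Rhbdf2. The difference between the genes itself was not tested.

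Of the remaining signalling genes Cyth4, an exchange factor for ARF proteins, passed as higher at 2 h by 0.31 (adjusted p = 9.47e-04). Rgs2, which shortens G protein signals, and Dusp16, a phosphatase of MAP kinases, did not pass at 2 h and were highest at 6 h, with changes of 0.84 and 0.61.

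The 10 cell surface receptors and membrane proteins had median changes of -0.35, -0.10, 0.30, 0.67 and -0.02 at 1, 2, 3, 6 and 24 h. Olr1 had the largest rebound among them and is described by the array annotation as the lectin-like receptor for oxidized low density lipoprotein, not an odorant receptor. It measured 6.50 ± 0.35, 6.05 ± 0.30, 6.44 ± 0.20, 7.05 ± 0.32, 7.71 ± 0.32 and 6.76 ± 0.34 at 0, 1, 2, 3, 6 and 24 h. Ms4a6a, a membrane protein of the family of CD20, rose most between 2 h and 3 h, from 8.82 ± 0.28 to 9.97 ± 0.37, and had the lowest 24 h change of the set, -0.20. Cysltr1, a receptor for cysteinyl leukotrienes, had a 1 h change of -0.57 and a 6 h change of 0.83, with SDs up to 0.56.

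Leukotrienes are made from the arachidonic acid that Pla2g4a frees, so Cysltr1 and Pla2g4a fall in one pathway. Of the 26 probe sets on a list of leukotriene and prostaglandin genes 2 were in the set. This is 7.69%, against 0.285% of all probe sets with a symbol. The share rests on 2 probe sets of a list chosen with earlier results known, and was not tested. The other genes of the list mostly had other courses. Alox5, Alox5ap and Lta4h, which make leukotrienes, were above 0 h already at 1 h, by 1.45, 1.23 and 0.11, and at 6 h by 1.31, 2.31 and 1.15. At 2 h 10 of the 26 passed as higher and 3 as lower, against 21.7% and 18.6% of all probe sets, the latter being Pla2g4a, Hpgds and Ptges3. The 10 count Ptger2 under 2 probe sets with the same values.

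Cd244, a receptor of NK cells and monocytes, has probe sets that disagree. The one in the set had a 1 h change of -0.30 and a 6 h change of 0.61, whereas the other, 10765625, was lower at every time, with -0.84, -0.92 and -0.72 at 1, 2 and 6 h (adjusted p = 1.32e-05 for the 2 h change).

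Abcg2, an efflux pump, was lower at 2 h, with a change of -0.25 (adjusted p = 0.0369). The other membrane proteins, Lrrc25, Acvr1b (an activin receptor), Enpp3 (a marker of basophils) and Apmap, did not pass at 2 h, and their highest changes lay between 0.48 and 0.81. Apmap and Cst7 are also neighbours, on opposite strands of chromosome 3 of rn5 with a gap of 3952 bases.

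The 11 metabolic enzymes had median changes of -0.36, -0.19, 0.28, 0.55 and 0.04 at 1, 2, 3, 6 and 24 h. Bcat1, which starts the breakdown of branched-chain amino acids, had the lowest 1 h change of the set. It measured 8.15 ± 0.13, 7.27 ± 0.21, 7.72 ± 0.24, 8.44 ± 0.23, 8.78 ± 0.22 and 8.09 ± 0.30 at 0, 1, 2, 3, 6 and 24 h. The 1 h signal was 0.54 times that at 0 h, and at 2 h the gene was still lower, with a change of -0.43 (SE 0.11, limma adjusted p = 0.00129). Cdo1, which oxidizes cysteine, and Acss2, which makes acetyl-CoA from acetate, were also lower at 2 h, with changes of -0.37 (adjusted p = 0.0337) and -0.49 (adjusted p = 2.29e-04), although the call of Cdo1 was lost with quantile normalization (adjusted p = 0.0594). Txnrd1, the reductase of thioredoxin and a target of the oxidative stress factor Nrf2, was higher at 2 h by 0.27 (adjusted p = 0.00822) and reached 1.11 at 6 h.

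Cpt1a, the gate for entry of long-chain fatty acids into mitochondria, was the only one of these enzymes whose highest mean came at 24 h, with changes of -0.31, 0.03, 0.26, 0.56 and 0.71 at 1, 2, 3, 6 and 24 h. The other gene of the 61 with its highest mean at 24 h was Fam134b. Atic and Pnp of purine metabolism, Maoa (monoamine oxidase), Acaa1 (peroxisomal beta-oxidation) and Ggh (folate) did not pass at 2 h and had their highest changes between 0.43 and 0.64.

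The 5 mitochondrial probe sets were those of Ndufb3 (complex I), Slc25a16 (a carrier, with both its probe sets), Lyrm5 and Mrpl33 (a mitochondrial ribosomal protein). None passed at 2 h. Ndufb3 rose mainly between 3 h and 6 h, from 9.28 ± 0.36 to 10.18 ± 0.47, and was one of the noisier genes, with SDs of 0.46 at 0 h and 0.49 at 1 h that exceed its 1 h change of -0.39. The probe sets of Slc25a16 differed in size, with 6 h changes of 0.96 and 0.44.

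The 4 proteins of folding and turnover had median changes of -0.33, -0.30, -0.01 and 0.46 at 1, 2, 3 and 6 h. The disulfide isomerase Pdia6 (-0.39, adjusted p = 9.81e-04), the prolyl isomerase Ppil6 (-0.60, adjusted p = 0.00893) and the proteasome subunit Psmd11 (-0.21, adjusted p = 0.0375) were lower at 2 h, while Dnajc16, a co-chaperone, did not pass (0.06) and was highest at 3 h (0.43). The call of Psmd11 was lost with quantile normalization (adjusted p = 0.115). Ppil6 was the one gene with its lowest mean at 3 h, -0.62.

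In the group of cytoskeleton and trafficking Vim, the intermediate filament vimentin, was measured with the least spread. It had 12.08 ± 0.04, 11.79 ± 0.14, 12.18 ± 0.09, 12.39 ± 0.04, 12.65 ± 0.05 and 12.19 ± 0.13 at 0, 1, 2, 3, 6 and 24 h. The 6 h rise of 0.57 was thus many times the SD, although the 2 h change of 0.10 did not pass (adjusted p = 0.0974). Myo5a (a myosin motor), Cyfip1 (actin regulation) and Uhrf1bp1l had 6 h changes between 0.55 and 0.98, and none passed at 2 h. The 2 genes without a role group were Fam129a, at 0.99 at 6 h, and RGD621098, which was lower at 2 h, with a change of -0.45 (adjusted p = 2.38e-06) and had 10.57 ± 0.08 at 6 h against 9.93 ± 0.15 at 0 h.

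Markers of the blood cell types were set beside the set, and the part of cell numbers in its changes was not tested. The 20 neutrophil probe sets had median changes of 0.82, 1.39, 1.25, 1.40 and 0.64 at 1, 2, 3, 6 and 24 h, the 20 of B cells -1.48, -1.96, -2.00, -1.55 and -0.55, and the 19 of T cells -0.37, -0.90, -0.92, -1.14 and -0.70. All 20 neutrophil probe sets were above 0 h at 1 h, and none of the B cell or T cell probe sets was below 0 h at 1 h and above it at 6 h. Of the 9 lists the median of 1, that of the 18 monocyte and macrophage probe sets, was below 0 at 1 h and above it at 3 and 6 h, with -0.34, -0.05, 0.22, 0.27 and -0.22. Single probe sets below 0 h at 1 h and above it at 6 h were 3 of 18 in this list, 3 of 12 in that of dendritic cells, 3 of 27 in that of erythroid cells and 1 of 19 in that of NK cells. Of the 21406 probe sets with a symbol 8475 were below 0 h at 1 h and 12560 were above it at 6 h. The share with both was not counted, so these counts are no result about a cell type.

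That median hid different courses of single monocyte markers. Of the 18 probe sets 10 were below 0 h at 1 h and 1 met the rule. Cd14, Vcan and Msr1 were above 0 h at 1 h, by 0.22, 0.09 and 0.16, and rose to 1.34, 2.26 and 2.52 at 6 h. Cx3cr1, Csf1r and Nr4a1, of which Cx3cr1 and Nr4a1 mark patrolling monocytes, were lower at 1 h, with changes of -0.70, -0.59 and -1.02, and lower still at 6 h, with -1.35, -1.05 and -1.48. Mpeg1 and Cd300e were among those with a fall and a rise, with 1 h changes of -0.76 and -0.62 and 6 h changes of 0.27 and 0.03. The log2 values of the list added up to 169.9, 163.7 and 171.9 at 0, 1 and 6 h. A sum of log2 values is neither a total signal nor a measure of cell number.

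**Figure D5:**
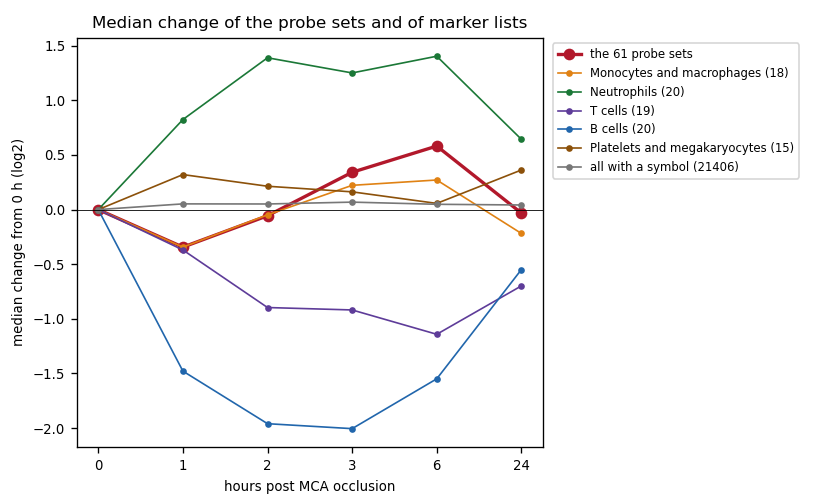
Median change from 0 h (y axis, log2) of the 61 probe sets and of lists of cell type markers, with the number of probe sets in each, at 0, 1, 2, 3, 6 and 24 hours post MCA occlusion (x axis, not to scale). The line of the 61 lies with that of the monocyte list at 1 h and 2 h and above it later, while neutrophil markers rise and B cell and T cell markers fall from 1 h on.

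Most of the set was in none of the lists of pathways and cell types. Of 39 such lists 11 had a member in the set, and 11 of the 61 probe sets were in at least 1 list. The share of all probe sets in at least 1 list was not counted. Whether the lists hold more or less of the set than of the array was therefore not tested. Of these 39 only that of leukotrienes and prostaglandins held more than 1. Another 11 lists were gene families matched by name. Among them solute carriers held 3 of 376 probe sets (0.798%) and unnamed loci 2 of 2435 (0.0821%). These shares lie on either side of the 0.285% of all probe sets with a symbol, and neither was tested.

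The promoters of the genes were described from RefSeq (GRCr8), over 250 bases before to 50 bases after the first listed start. A promoter was found for 50 of the 61 probe sets, or 48 genes. These were richer in G and C than all 27457 promoters of the table, with medians of 59.5% and 52.3%. The SP motif GGGCGGG, read on both strands as were all motifs, was in 47.9% of the 48 and in 24.2% of all. The ETS motif CCGGAAG was in 16.7% against 9.22%, the AP-1 motif TGANTCA in 12.5% against 7.33%, the E-box CACGTG in 10.4% against 6.65% and the cyclic AMP element TGACGTCA in 4.17% against 1.91%. These 4 motifs were in only 8, 6, 5 and 2 of the 48 promoters. No share was tested, and the 48 were not matched to promoters of like G and C content or signal. The interferon motifs GAS, TTCNNNGAA, at 6.25% against 8.68%, and ISRE core, TTTCNNTTT, at 6.25% against 11.5%, and the heat shock motif GAANNTTC, at 8.33% against 8.34%, were no more frequent than in all promoters. TATAAA was in 16.7% against 14.3% and CCAAT in 37.5% against 37.7%. The NF-kB letters GGAATTTCC or GGGACTTTC were in none of the 48 windows and in 0.656% of all, and the D-box TTANGTAA in none and in 2.19%. A match is a description of the letters, not a site.

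Windows of 30 bases are shown for genes described above that hold one of the less frequent motifs, in capitals, on the strand of the gene (GRCr8). The Olr1 window is chr4:164634559-164634588, the Pld1 window chr2:112821974-112822003 and the Zfp36l1 window chr6:104668824-104668853, each with an AP-1 motif.
Olr1: cctgtgacggtTGAGTCAtcctctgctaga
Pld1: ggggacacaagTGAATCAcagttctctttg
Zfp36l1: gaccgcatggcTGATTCAacctcggtgtca
The AP-1 motif starts 30 bases before the start in Olr1, 191 in Pld1, which holds another copy at 231, and 152 in Zfp36l1. These 3 genes had unlike 2 h changes, -0.06, 0.52 and -0.79. The E-box windows of Nek10 (chr15:13013828-13013857), Ndufb3 (chr9:67623319-67623348) and Atic (chr9:80614249-80614278) are followed by the ETS window of St3gal4 (chr8:41723185-41723214), the GAS window of Plcb1 (chr3:142512614-142512643) and the cyclic AMP element of Abcg2 (chr4:89075401-89075430).
Nek10: caaaaaactaagCACGTGcatacgtgcatc
Ndufb3: attgagtgggtcCACGTGcttaataacaac
Atic: ggaccttagggtCACGTGgggtcatcctgc
St3gal4: aagatagtaagCTTCCGGgggaaggggact
Plcb1: ggcatccaggTTCCCAGAAagcccccaaac
Abcg2: gcggcgcgagcTGACGTCAccgcggcggag
The genes with an E-box shown here had their highest mean at 6 h in Nek10 and Ndufb3 and at 3 h in Atic.

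The limits of the rule fell among close values. Just inside the 1 h limit were Pde12, Mirlet7c-1 and Dusp16, all at -0.20, and just outside it Cndp2 at -0.20, Hint3 at -0.19 and Dbt at -0.19. For the later rise Pla2g4a and Ppil6 at 0.40 and Dnajc16 at 0.43 were just inside, and Sulf2 and Rlim at 0.40 and Ppil1 at 0.39 just outside. At 24 h Ms4a6a, Ddhd1 and Zfp36l1 at -0.20 were the lowest kept, and Nfe2l2 at -0.25, Birc3 at -0.29 and LOC102554194 at -0.32 were the nearest left out. Dbt, of branched-chain amino acid breakdown like Bcat1, missed the 1 h limit by less than 0.01 and rose by 1.49 at 6 h.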

How the data were processed

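The authors summarized each array by RMA to a log2 signal per probe set and deposited, for each time point, an average on the log2 scale and an SD (same scale). The kind of average is not named and was taken as the mean. The table's annotation (rn5) gave symbols and positions. The 47 columns of single arrays carry running numbers that name no animal and no time, and were not used. The 19 columns of the authors' comparisons (fold changes, p-values, FDR, F-tests) were not used.

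The planned limma model on single arrays was replaced, as foreseen, by limma's variance moderation (limma 3.58.1, R 4.3.3) on the deposited averages, SDs and array numbers, pooled over 6 time points, for 2 h against 0 h, with Benjamini-Hochberg adjustment over 27596 probe sets and no filter on low values. Arrays were taken as independent, although each animal gave blood at all times . The number of arrays limits the precision. Members, gene lists, motifs and tests were chosen with earlier results of these data known. Genes were described in full by rule: the largest rebounds, falls and rises, the highest and lowest 24 h changes, list members, the highest 0 h levels and those nearest the limits. Other members were named by role after their values were seen, and 3 are not reported by name here or drawn in the plots that label genes. Alternatives were other variance estimates, centring, quantile normalization, a filter on low values and other limits.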

Additional observations from a re-analysis of the deposited data

How the results depend on the processing

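The size of the set depended on its limits. The rule found 61 probe sets as used, 22 with limits of -0.3 and 0.6, and 165 with limits of -0.1 and 0.3. With time points centred on their median it found 70, of which 57 were among the 61, and with quantile normalization of the means 62, of which only 45 were. Centring lowered the changes of a time point by 0.03 to 0.05. At 2 h the number called higher among the 61 was 9 to 11 and the number called lower 9 to 15 over all alternatives, and for all probe sets the split of 6002 higher and 5137 lower became 4443 and 5602 after centring and 5018 and 4826 after quantile normalization. The median 2 h change of the set was -0.06 as used and 0.03 after quantile normalization. Small 2 h changes that had not passed turned sign: Plcb1 to -0.0279 with centring, and with quantile normalization Ndufb3 to 0.0589, the Slc25a16 probe sets to 0.0285 and 0.0318, Fam129a to 0.0626, Cyfip1 to 0.0431 and Pde12 to 0.0669. The cause was not tested. Of the calls at 2 h, that of Pla2g4a was lost without moderation (adjusted p = 0.0516) and with quantile normalization (0.198), and those of Cdo1 (0.0594) and Psmd11 (0.115) with quantile normalization. With only the 0 h and 2 h values 1 call was lost, and Enpp3 (adjusted p = 0.0125), Dusp16 (0.0329), Nek10 10782493 (0.0396) and Vim (0.0416), which had not passed, did so. Calls were also gained by Atic (0.0279) and Dusp16 (0.0315) with centring, by Acaa1 (0.0435) and Plcb4 (0.0462) with quantile normalization, and by Atic (0.0461) and Dusp16 (0.0463) with the 25% of probe sets of lowest mean left out. No paired analysis was possible because the columns of single arrays carry running numbers that name no animal and no time and were not assigned by their order, and for the same reason no rat was left out in turn.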

Other observations

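A further 9 probe sets with a symbol met the limits at 1 h and at 3 h or 6 h but lay below the 24 h limit. The lowest 1 h change among them was that of Zeb2, a transcriptional repressor, with changes of -1.29, -1.35, 0.69 and -0.68 at 1, 2, 6 and 24 h. Birc3, an inhibitor of apoptosis, changed by -0.52, 1.14 and 1.10 at 1, 3 and 6 h. Rnase2, a secreted ribonuclease of granulocytes, changed by -0.33, 1.43 and -0.86 at 1, 3 and 24 h, and Nfe2l2, which encodes Nrf2, by -0.31, 0.62 and -0.25. The others were Tifa, Gas7, Ssr3, LOC102554194 and a probe set shared by Mnda and RGD1562462. Of the 6190 probe sets without a symbol 4 met all limits (0.0646%), with 6 h changes between 0.47 and 0.98.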
